A study of Homo sapiens with 20 samples.

Results

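The 8 transcription factor genes of the luminal mammary lineage described here, GATA3, FOXA1, TFAP2A, TFAP2C, ELF3, ELF5, SPDEF and XBP1, were followed in SUM44 cells given estradiol (E2) or vehicle. SUM44 is an established human breast cancer line derived from an invasive lobular carcinoma, so every value below comes from 1 line. The cells had spent 3 days in charcoal-stripped serum, given as 2% in the series text and as 10% in the sample text, before any agent was added. The 5 groups were a baseline taken at 0 h, ethanol vehicle (0.01% EtOH) for 3 h, 1 nM E2 for 3 h, vehicle for 24 h and 1 nM E2 for 24 h. Each group held 4 Affymetrix arrays, described as biological replicates, and all 5 groups share the hormone deprivation. For the 4 arrays of E2 at 24 h the label on treatment says baseline while their titles say E2, and the title was followed. The members were the probe sets whose only annotated symbol is 1 of these genes. They came to 19 of the 19064 probe sets with a single symbol, and to 8 of 11963 genes. The probe set with the highest mean leads for each gene, and the others are given as checks.

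GATA3 and FOXA1 are DNA-binding factors that open chromatin for the estrogen receptor in luminal breast cells, and both mark receptor-positive tumors. TFAP2A and TFAP2C encode AP-2 factors, which bind near many of the same receptor sites. ELF3, ELF5 and SPDEF belong to the ETS family of epithelial factors, with ELF5 driving the milk-producing alveolar lineage and SPDEF secretory differentiation. XBP1 encodes a leucine zipper factor of the unfolded protein response and is a known target of the estrogen receptor. Its active form arises by splicing of the mRNA, which its probe set does not resolve.

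Promoter sequences are shown for the 3 members that fell most with E2 at 3 h and the 2 that rose most, since these genes carry the main results. They were taken from RefSeq on GRCh38.p14, which matched 7 of the 8 members, all but TFAP2C. Each run holds the 250 bases before the outermost annotated start site, 5′ to 3′ on the gene's strand. GATA3 lies at chr10:8045083-8045332 (plus strand), FOXA1 at chr14:37595250-37595499 (minus), TFAP2A at chr6:10419660-10419909 (minus), ELF3 at chr1:202010337-202010586 (plus) and XBP1 at chr22:28800570-28800819 (minus). Capitals mark matches on either strand to the estrogen receptor core GGTCA and the AP-2 motif GCCNNNGGC.
GATA3: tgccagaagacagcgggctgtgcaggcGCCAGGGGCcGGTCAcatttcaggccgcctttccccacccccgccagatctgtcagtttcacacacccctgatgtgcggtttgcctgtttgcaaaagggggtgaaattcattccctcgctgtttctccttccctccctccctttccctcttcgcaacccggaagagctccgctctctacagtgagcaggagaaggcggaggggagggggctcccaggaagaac
FOXA1: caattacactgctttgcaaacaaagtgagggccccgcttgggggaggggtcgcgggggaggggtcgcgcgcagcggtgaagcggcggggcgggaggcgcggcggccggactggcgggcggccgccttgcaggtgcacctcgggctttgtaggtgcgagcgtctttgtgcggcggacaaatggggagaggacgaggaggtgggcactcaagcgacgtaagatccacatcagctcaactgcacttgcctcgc
TFAP2A: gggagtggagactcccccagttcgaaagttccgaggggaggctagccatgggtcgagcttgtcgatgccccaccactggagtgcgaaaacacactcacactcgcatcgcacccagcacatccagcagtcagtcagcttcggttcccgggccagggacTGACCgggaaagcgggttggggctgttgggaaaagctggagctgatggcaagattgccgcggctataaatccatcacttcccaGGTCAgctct
ELF3: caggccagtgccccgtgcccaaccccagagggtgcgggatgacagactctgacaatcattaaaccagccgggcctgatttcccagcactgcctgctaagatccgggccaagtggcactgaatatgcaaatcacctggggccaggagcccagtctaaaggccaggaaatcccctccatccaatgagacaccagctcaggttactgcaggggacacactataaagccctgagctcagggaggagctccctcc
XBP1: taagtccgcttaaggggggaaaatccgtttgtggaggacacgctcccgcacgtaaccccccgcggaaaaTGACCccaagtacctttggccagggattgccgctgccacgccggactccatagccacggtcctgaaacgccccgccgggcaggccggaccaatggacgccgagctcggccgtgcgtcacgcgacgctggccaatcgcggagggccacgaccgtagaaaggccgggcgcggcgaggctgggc

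The windows searched ran from 250 bases before to 50 after a start site, counted as position 0. The palindromic estrogen response element, which joins a pair of inverted cores at a spacing of 3 bases, was in 0 of the members' 14 windows and in 0.057% of all 35116 windows. The core alone was in 37.4% of all windows. In the GATA3 window shown it began at position -213, beside an AP-2 match at position -223, and an AP-2 match is in 23.2% of all windows. GATA3 has 6 windows in the table, and 3 of them held a core. The TFAP2A window shown held cores at positions -93 and -10 and the XBP1 window shown 1 at position -181. Each of these genes has 2 windows. The other TFAP2A window held neither a core nor an AP-2 match. The other XBP1 window held cores at positions -50 and 26 and AP-2 matches at positions -108 and -17. The FOXA1 and ELF3 windows held neither these letters nor the GATA motif AGATAA nor the FOXA motif TGTTTAC. The ETS core GGAA, present in 95.5% of windows, was found in all 14 and is not capitalised. A match is a description of letters, and binding was not measured here.

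Within 3 h of E2, GATA3, FOXA1 and TFAP2A fell and ELF3 rose, each by a log2 change of about 1 or more, while XBP1 and TFAP2C rose less and SPDEF fell slightly. By limma at a Benjamini-Hochberg adjusted p of 0.05 over all genes, 7 of the 8 members passed, 3 higher and 4 lower. Over all genes 31.1% passed, 13.5% higher and 17.6% lower. The median size of change was 0.66 on the log2 scale among the members and 0.08 among all genes. The E2 and vehicle arrays did not overlap for 7 members, against 30.6% of genes. The median change of all genes was 0.0002, which the authors' normalization to a common distribution holds near 0. In cultured cells measured in bulk, fewer cells with a transcript and less transcript per cell cannot be told apart.

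**Figure D1:**
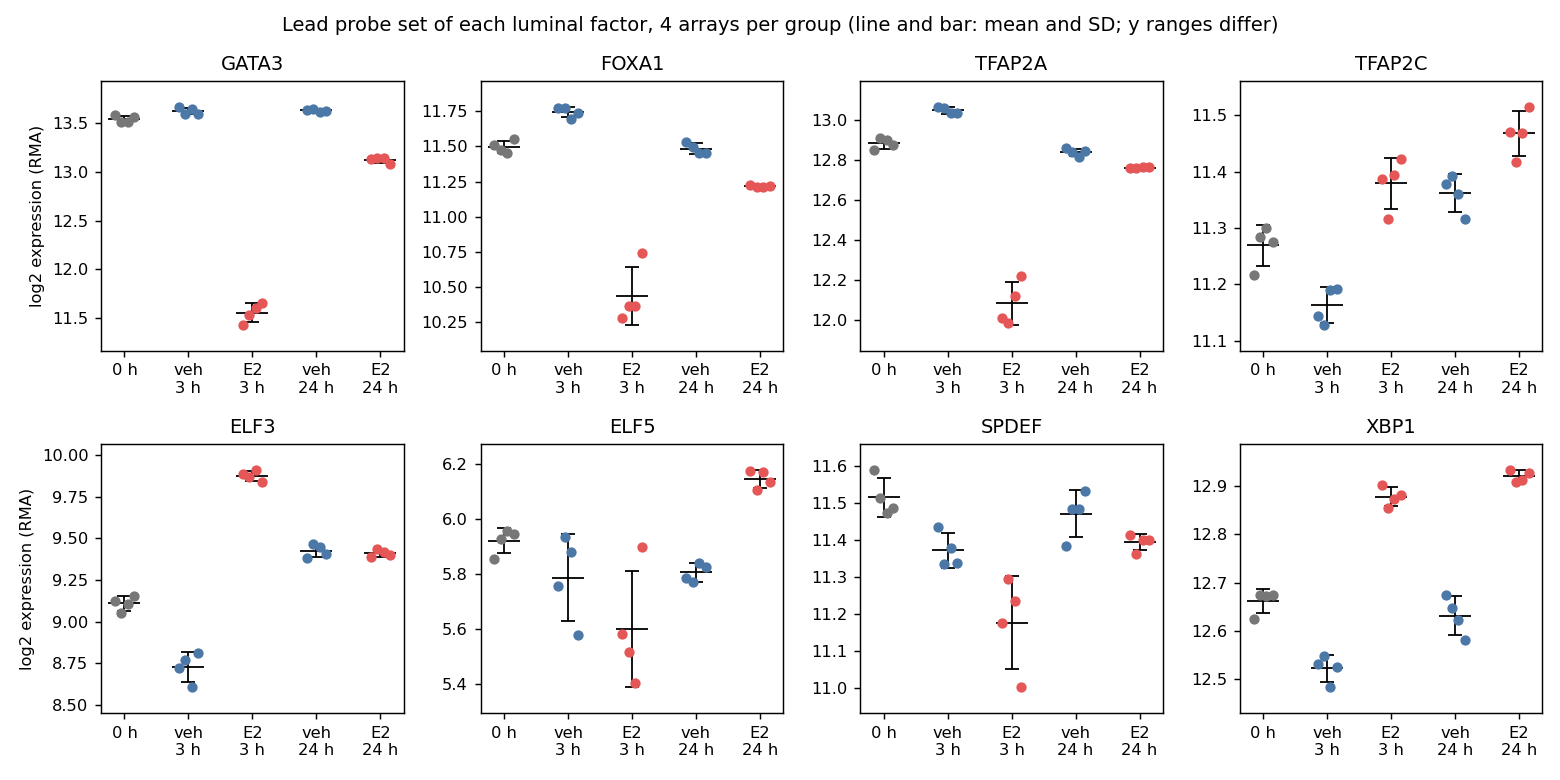
Log2 expression of the lead probe set of each factor (y axis, own range in each panel) on every array of the 5 groups (x axis: baseline at 0 h, vehicle and E2 at 3 h and 24 h), with the mean and SD of 4 arrays. The GATA3, FOXA1 and TFAP2A arrays with E2 at 3 h lie below all other groups, and the ELF3 arrays with E2 at 3 h lie above them.

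GATA3 had the largest change of the 8. The lead probe set read 13.66, 13.59, 13.64 and 13.60 on the vehicle arrays at 3 h and 11.43, 11.54, 11.60 and 11.66 with E2. At 24 h it read 13.64, 13.65, 13.61 and 13.62 with vehicle and 13.13, 13.14, 13.14 and 13.08 with E2. The baseline arrays lay at 13.58, 13.51, 13.51 and 13.56, below both vehicle groups and far above E2 at 3 h. The arrays of E2 at 3 h, E2 at 24 h and baseline did not overlap one another, and only the vehicle groups at 3 h and 24 h did. The difference from vehicle was -2.07 ± 0.04 (SE) at 3 h, a 4.19-fold decrease, and -0.51 ± 0.04 at 24 h, a 1.42-fold decrease. The limma adjusted p-values were 1.7e-18 and 1e-09. By size of change GATA3 ranked 28 of 11963 genes at 3 h and 965 at 24 h.

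The other GATA3 probe sets showed larger decreases. Over all 19064 probe sets 29.4% passed at 3 h, 41.6% at 24 h and 31.1% for the difference between the times. Probe set 209603_at went from 11.24 ± 0.07 to 8.59 ± 0.03 (SD, n = 4) at 3 h, a change of -2.65 ± 0.04. Probe set 209602_s_at went from 11.92 ± 0.12 to 9.42 ± 0.14 (SD, n = 4), a change of -2.49 ± 0.06. At 24 h their changes were -0.82 ± 0.04 and -0.65 ± 0.06. The lead probe set, whose vehicle mean of 13.62 is the highest of the 3, thus gave the smallest change at each time, and 3 of 3 probe sets passed at both times.

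FOXA1, a pioneer factor for the estrogen receptor, has 1 probe set. It read 11.77, 11.77, 11.70 and 11.74 with vehicle at 3 h and 10.28, 10.36, 10.37 and 10.74 with E2. At 24 h the vehicle arrays read 11.54, 11.49, 11.45 and 11.45 and the E2 arrays 11.22, 11.21, 11.22 and 11.22. The E2 arrays lay below the vehicle and baseline arrays (11.45 to 11.55) at both times. The difference was -1.30 ± 0.06 at 3 h (2.47-fold, limma adjusted p = 3.1e-12) and -0.27 ± 0.06 at 24 h (1.20-fold, limma adjusted p = 0.0022). Array D of the E2 group at 3 h lay nearest to vehicle, and without it the change at 3 h was -1.41.

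TFAP2A read 13.06, 13.06, 13.04 and 13.03 on the vehicle arrays at 3 h and 12.01, 11.98, 12.12 and 12.22 on the E2 arrays. At 24 h it read 12.86, 12.84, 12.81 and 12.84 with vehicle and 12.76, 12.76, 12.76 and 12.77 with E2. The groups were far apart at 3 h and close, though without overlap, at 24 h. The difference was -0.97 ± 0.04 at 3 h (1.95-fold, limma adjusted p = 7.2e-14). At 24 h it was -0.08 ± 0.04, with a limma adjusted p of 0.11 and a 95% interval from -0.16 to 0.002. That standard error uses 1 spread shared by the 5 groups. The SD was 0.018 with vehicle and 0.0034 with E2 at 24 h, against 0.11 with E2 at 3 h. All 3 TFAP2A probe sets passed at 3 h, with changes of -1.40 ± 0.06 for 204654_s_at and -0.50 ± 0.09 for 210669_at, and 0 of 3 passed at 24 h.

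Its paralog TFAP2C moved the other way by a small amount. The lead probe set lay between 11.13 and 11.19 with vehicle at 3 h and between 11.32 and 11.42 with E2. At 24 h the ranges were 11.32 to 11.39 with vehicle and 11.42 to 11.51 with E2. The differences were 0.22 ± 0.03 at 3 h and 0.11 ± 0.03 at 24 h (limma adjusted p = 1.1e-05 and 0.0082). The other probe set, 205287_s_at, gave 0.08 ± 0.04 at 3 h, which did not pass (limma adjusted p = 0.15), and 0.24 ± 0.04 at 24 h, which did. The rise at 3 h thus rests on 1 of 2 probe sets.

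ELF3, an ETS factor of epithelial differentiation, was the member that rose most at 3 h. The lead probe set read 8.72, 8.77, 8.60 and 8.81 with vehicle and 9.89, 9.87, 9.91 and 9.84 with E2. At 24 h it read 9.38, 9.47, 9.45 and 9.41 with vehicle and 9.39, 9.44, 9.42 and 9.40 with E2. The groups were separate at 3 h and overlapped throughout at 24 h. The difference was 1.15 ± 0.04 at 3 h (2.22-fold, limma adjusted p = 4.9e-15) and -0.01 ± 0.04 at 24 h, with a 95% interval from -0.09 to 0.07. Probe set 201510_at gave 1.92 ± 0.05 at 3 h and 0.21 ± 0.05 at 24 h, the latter past the threshold (limma adjusted p = 0.0031). The call for ELF3 at 24 h therefore differs between its 2 probe sets.

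XBP1 rose at both times. Its only probe set read 12.53, 12.55, 12.48 and 12.53 with vehicle at 3 h and 12.90, 12.85, 12.87 and 12.88 with E2. At 24 h it read 12.67, 12.65, 12.62 and 12.58 with vehicle and 12.93, 12.91, 12.91 and 12.93 with E2. The E2 arrays of both times lay above the vehicle and the baseline arrays (12.62 to 12.67). The differences were 0.36 ± 0.03 (1.28-fold) and 0.29 ± 0.03 (1.22-fold), with limma adjusted p-values of 7.6e-10 and 1.3e-08.

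SPDEF, which promotes secretory cell differentiation, changed little. The lead probe set lay between 11.33 and 11.44 with vehicle at 3 h and between 11.0 and 11.29 with E2. The difference was -0.19 ± 0.05 (limma adjusted p = 0.0042), and at 24 h it was -0.08 ± 0.05, with a 95% interval from -0.18 to 0.03 (limma adjusted p = 0.22). All 5 SPDEF probe sets carry the suffix that marks possible cross-hybridisation. At 3 h 3 of the 5 passed, all lower, and those with the lowest levels, 213442_x_at and 214403_x_at, gave 0.03 ± 0.05 and 0.04 ± 0.06.

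ELF5, the alveolar factor, was near the bottom of the measured range. Its group means ran from 5.60 to 6.15, and those of 4 of the 5 groups lay below 6.11, the level under which the lowest 25% of genes lie, called dim here. With E2 at 24 h it read 6.17, 6.10, 6.17 and 6.13, above the vehicle arrays at 5.78, 5.77, 5.84 and 5.83. The difference was 0.34 ± 0.08 (limma adjusted p = 0.0017). Probe set 220624_s_at, lower still, gave 0.11 ± 0.07 (limma adjusted p = 0.24). At 3 h the E2 arrays at 5.58, 5.52, 5.40 and 5.90 overlapped the vehicle arrays at 5.76, 5.93, 5.88 and 5.58, and the difference of -0.19 ± 0.08 did not pass (limma adjusted p = 0.091). It passed without E2 array D (-0.29, limma adjusted p = 0.0015) and without vehicle array D (-0.26, limma adjusted p = 0.017).

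**Figure D2:**
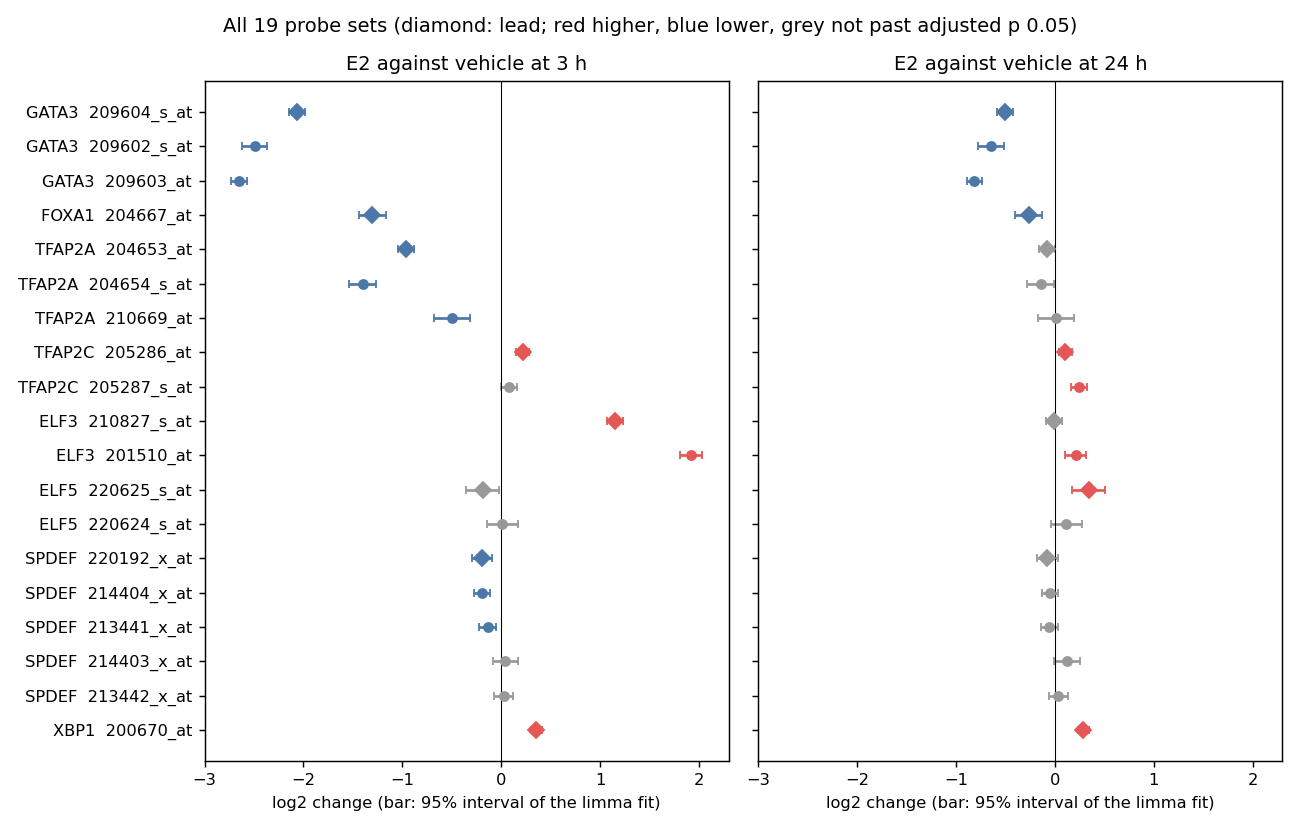
Log2 change of E2 against vehicle (x axis) for each of the 19 probe sets (y axis) at 3 h and 24 h, with 95% intervals of the limma fit over every named probe set. All 3 GATA3 probe sets are lower at both times, all 3 TFAP2A probe sets passed as lower at 3 h, and the ELF3 probe sets are higher at 3 h.

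By 24 h, 5 of the 8 members passed, where 45.7% of all genes did (21.5% higher, 24.2% lower). TFAP2C, ELF5 and XBP1 were higher and GATA3 and FOXA1 lower. The median size of change was 0.19 among the members and 0.12 among all genes, so the members stood less apart than at 3 h. Without the dimmest 25% of genes ELF5 is not tested and 4 members passed. Arrays did not overlap for 6 members, against 41.4% of genes.

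The change of the E2 effect between the times was tested directly, as the effect at 24 h minus that at 3 h. It passed for 5 members, 4 positive and 1 negative, where 34.3% of genes passed (16.5% positive, 17.8% negative). GATA3 had a difference of 1.56 ± 0.05, FOXA1 of 1.04 ± 0.09 and TFAP2A of 0.89 ± 0.05, so that each decrease was smaller at 24 h. ELF3 had a difference of -1.17 ± 0.05, so that its increase was smaller. ELF5 had a difference of 0.53 ± 0.11 on its dim lead probe set and 0.10 ± 0.11 on the other. The limma adjusted p-values of these 5 ran from 3.6e-14 for GATA3 to 0.0011 for ELF5. XBP1 (-0.07 ± 0.04, 95% interval from -0.14 to 0.01), SPDEF (0.12 ± 0.07, from -0.03 to 0.26) and TFAP2C (-0.11 ± 0.04, from -0.20 to -0.02) did not pass after adjustment. For TFAP2C the other probe set gave the opposite sign, 0.16 ± 0.05 (limma adjusted p = 0.031). On the lead probe set it passed without array B of E2 at 3 h (-0.13), without array D of vehicle at 24 h (-0.12) or without array D of E2 at 24 h (-0.13).

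The vehicle groups themselves moved, which enters each of these differences. At 3 h 6 of the 8 members differed between vehicle and baseline, where 20% of genes did (9.95% higher, 10.1% lower). Arrays did not overlap for 7 members, against 25.4% of genes. FOXA1 was higher by 0.25 ± 0.06 and TFAP2A by 0.17 ± 0.04. ELF3 was lower by more than any other member (-0.38 ± 0.04, limma adjusted p = 4.4e-07), XBP1 by -0.14 ± 0.03, SPDEF by -0.14 ± 0.05 and TFAP2C by -0.11 ± 0.03. Each of these 6 moved opposite to its E2 difference at 3 h except SPDEF, so for the other 5 the comparison with vehicle gives a larger E2 change than the comparison with baseline. GATA3 was 0.08 ± 0.04 above baseline and did not pass (limma adjusted p = 0.14). The call of TFAP2C was lost without baseline array B or C or vehicle array A or B, with changes from -0.10 to -0.09. The call of SPDEF (limma adjusted p = 0.048) was lost without any array but vehicle array A, with changes from -0.16 to -0.12 over all 8.

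By 24 h in vehicle, ELF3 alone differed from baseline on the lead probe sets, higher by 0.32 ± 0.04 (limma adjusted p = 1.2e-05). Over all genes 11.9% differed (7.55% higher, 4.37% lower). The arrays did not overlap for 4 members, against 19.8% of genes. Between the vehicle groups, 24 h against 3 h, 5 members passed where 28.9% of genes did (16.1% higher, 12.8% lower), and 5 did not overlap, against 29.9% of genes. ELF3 was higher by 0.70 ± 0.04, TFAP2C by 0.20 ± 0.03 and XBP1 by 0.11 ± 0.03, while FOXA1 was lower (-0.26 ± 0.06) and TFAP2A too (-0.21 ± 0.04). On the lead probe sets, the vehicle arrays at 24 h stood within 0.10 of baseline for GATA3, FOXA1, TFAP2A, TFAP2C, SPDEF and XBP1. Other probe sets of these genes lay further off. TFAP2A 204654_s_at was lower than baseline (-0.23 ± 0.06, limma adjusted p = 0.030) and GATA3 209603_at higher (0.12 ± 0.04, limma adjusted p = 0.044). TFAP2C 205287_s_at, at -0.12 ± 0.04, did not pass (limma adjusted p = 0.061). Over all 19064 probe sets 2045 passed.

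Set against baseline in place of vehicle, all 8 members passed with E2 at 3 h, 3 higher and 5 lower, where 35.5% of genes passed (15.7% higher, 19.8% lower). The arrays did not overlap for 7 members, against 35.1% of genes. GATA3 was lower by a log2 change of -1.98 ± 0.04, FOXA1 of -1.06 ± 0.06 and TFAP2A of -0.80 ± 0.04. ELF3 was higher by 0.77 ± 0.04, which is 1.70-fold where the comparison with vehicle gave 2.22-fold. With E2 at 24 h 7 members passed against baseline, where 41.6% of genes did (19.2% higher, 22.4% lower), and 8 did not overlap, against 40.8% of genes. The ELF5 call there (0.23 ± 0.08) was lost without baseline array A or B or E2 array A or C, with changes from 0.20 to 0.23. GATA3 was at -0.42 ± 0.04, FOXA1 at -0.28 ± 0.06, TFAP2A at -0.12 ± 0.04, ELF3 at 0.30 ± 0.04 and XBP1 at 0.26 ± 0.03. These comparisons share arrays with those above and are not separate evidence.

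Between the E2 groups, 24 h against 3 h, 7 members passed where 43.8% of genes did (22.3% higher, 21.5% lower), and 7 did not overlap, against 39.1% of genes. The TFAP2C call (0.09) was lost without array B of E2 at 3 h (0.07) or array D of E2 at 24 h (0.07). GATA3 was higher by 1.57 ± 0.04 (2.96-fold), FOXA1 by 0.78 ± 0.06 and TFAP2A by 0.68 ± 0.04. ELF3 was lower (-0.47 ± 0.04). XBP1 was at 0.04 ± 0.03 and did not pass (limma adjusted p = 0.20).

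**Figure D3:**
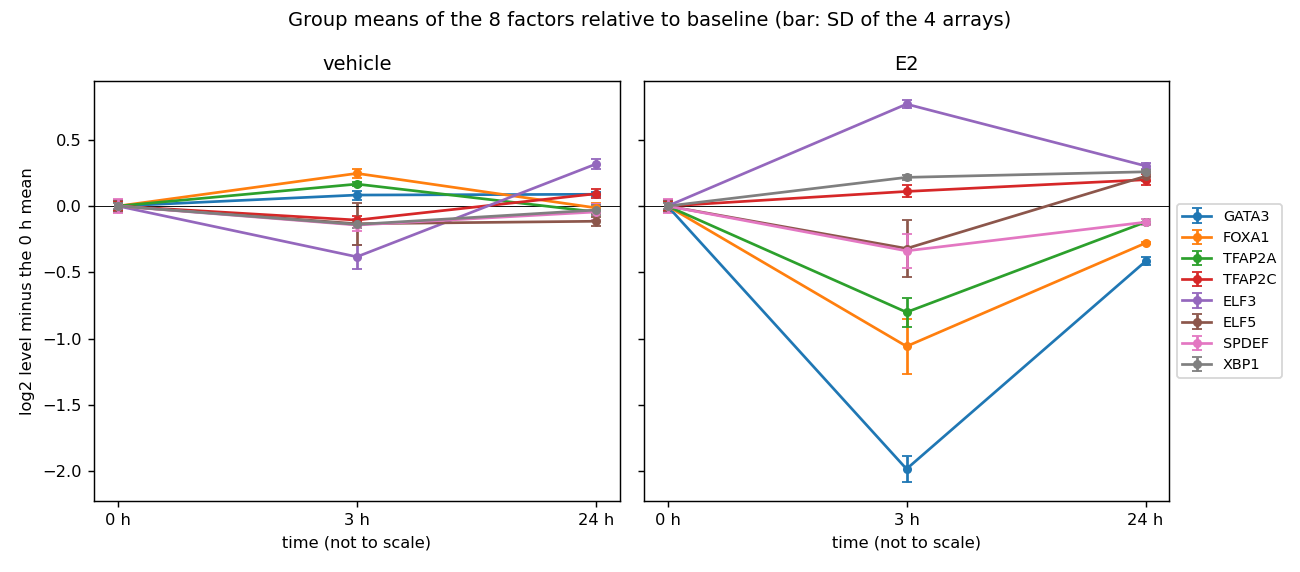
Mean log2 level of the lead probe sets minus the 0 h mean (y axis) at 0 h, 3 h and 24 h (x axis, not to scale) in vehicle and in E2, with the SD of 4 arrays as bars and separate cultures at each time. GATA3 with E2 is at -1.98 at 3 h and -0.42 at 24 h, while in vehicle every member stays within 0.4 of baseline.

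The order of the 5 groups sorted the members into kinds. For GATA3, FOXA1 and TFAP2A the lowest group was E2 at 3 h and the next E2 at 24 h, with no overlap between these 2 or with the group above. Their highest groups were vehicle at 24 h for GATA3 and vehicle at 3 h for FOXA1 and TFAP2A. For ELF3, XBP1 and TFAP2C the lowest was vehicle at 3 h, without overlap with the next. The highest was E2 at 3 h for ELF3 and E2 at 24 h for XBP1 and TFAP2C. For TFAP2C the arrays of E2 at 3 h overlapped those of vehicle at 24 h and of E2 at 24 h. The group means spanned 2.07 for GATA3, 1.30 for FOXA1, 1.15 for ELF3 and 0.97 for TFAP2A on the log2 scale. Wider spans were seen in 0.602%, 2.72%, 3.74% and 5.52% of genes.

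Genes with the most similar pattern over the 5 group means were found by the root-mean-square difference after centring each gene. For GATA3 they were PDE4B, a cyclic AMP phosphodiesterase, at 0.073, the G protein subunit gene GNAI1 at 0.11 and GUSBP14 at 0.11. For FOXA1 they were the potassium channel gene KCNS3 (0.059), the calcium channel subunit gene CACNB2 (0.078) and SYNC (0.088). For TFAP2A they were the ubiquitin ligase gene TRIM36 (0.017), CACNB2 (0.053) and the desmosomal gene PKP2 (0.057). For ELF3 they were ACKR3, a scavenging chemokine receptor gene (0.086), SEMA3F (0.096) and SAMD9 (0.14). For the dim ELF5 the nearest was the DNA methyltransferase gene DNMT1 at 0.017, followed by CDC14A at 0.033 and ANKEF1 at 0.039. No other member was among the 3 nearest of any, and the other 3 members spanned under 0.5 and were not matched.

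Relatives of the members in the GATA, FOXA, AP-2, ETS and related families make up a list of 26. Of 24 measured, 5 rose and 3 fell at 3 h (33.3%, against 31.1% of all genes), and 7 rose and 6 fell at 24 h (54.2%, against 45.7%). GATA4, from the endoderm and heart subgroup, rose by 1.59 ± 0.11 at 3 h and 1.45 ± 0.11 at 24 h. Its vehicle means were 6.08, under the dim level of 6.11, and 6.20, so both changes start near background. GATA6 rose by 0.22 ± 0.06 at 3 h and fell at 24 h (-0.93 ± 0.06). GATA1 and GATA2 did not pass at either time, with changes from -0.05 to 0.09. FOXA2 was dim and did not pass. TFAP2B, a paralog of the AP-2 members, was also dim but passed as lower at 3 h (-0.24 ± 0.08, limma adjusted p = 0.020), and the difference between the times passed too (0.40 ± 0.11, limma adjusted p = 0.0064). The ETS factor ELF1 rose by 0.64 ± 0.04 and 0.51 ± 0.04, ELK3 rose by 0.59 ± 0.06 at 3 h, and ETS2 fell at 24 h (-1.33 ± 0.05). EHF, the closest relative of ELF3 and ELF5 in epithelia, was at -0.16 ± 0.09 at 3 h and rose by 0.41 ± 0.09 at 24 h. ELF2 fell at 24 h (-0.09) and ELF4 rose by 0.14.

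Other regulators of the luminal state changed in most cases, more of them downward. Of 33 measured, 10 rose and 17 fell at 3 h (81.8% past the threshold, against 31.1% of all genes). At 24 h 8 rose and 17 fell (75.8%, against 45.7%). The median change was -0.15 at 3 h and -0.14 at 24 h. The homeobox gene DLX2 (-3.38 ± 0.07), the coactivator gene CITED2 (-1.93 ± 0.05) and the LIM-domain gene LMO4 (-0.93 ± 0.03) had the smallest p at 3 h. The DLX2 mean with E2 was 5.59, under the dim level, so its change depends on a value near background. In vehicle at 3 h the mean of CITED2 was 11.75, against 11.01 at baseline, so its difference from vehicle exceeds that from baseline. At 24 h NRIP1, a corepressor of nuclear receptors, rose by 0.97 ± 0.03, while ID2 (-0.81 ± 0.04) and SOX9 (-1.26 ± 0.07) fell. The list was drawn up with earlier results of these samples known, so its counts are a description.

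The luminal product genes changed in both directions. Their list mixes markers of luminal cells with known estrogen targets such as GREB1 and TFF1, so its counts are a description. Of 32 measured, 12 rose and 8 fell at 3 h (62.5%, against 31.1% of all genes), and 14 rose and 13 fell at 24 h (84.4%, against 45.7%), with median changes of -0.01 at both times. At 3 h the cyclin gene CCND1 rose by 1.51 ± 0.05, GREB1 by 1.70 ± 0.07 and the secreted glycoprotein gene STC2 by 1.03 ± 0.03. At 24 h AGR2, a protein disulfide isomerase of secretory cells, rose by 1.6 ± 0.03 and GREB1 by 2.41 ± 0.07, and the secretoglobin gene SCGB1D2 fell (-0.75 ± 0.03).

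The list of genes of the unfolded protein response and secretory pathway holds known XBP1 targets and other genes, such as DDIT3 and ATF4. Its genes were mostly not past the threshold at 3 h and mostly higher at 24 h. Of 26 measured, 5 rose and 4 fell at 3 h (34.6%, near the 31.1% of all genes), with a median change of 0.03. At 24 h 19 rose and 3 fell (84.6%, against 45.7% of all genes), with a median of 0.25. XBP1 itself was higher at both times, and a link between XBP1 and the list was not tested. The signal peptidase subunit gene SPCS3 rose by 0.59 ± 0.03 at 24 h, the chaperone gene SDF2L1 by 0.60 ± 0.04 and the disulfide isomerase gene PDIA6 by 0.42 ± 0.03. At 3 h the stress factor gene DDIT3 rose by 0.44 ± 0.05 and the cochaperone gene DNAJB9 by 0.21 ± 0.03, while SEL1L fell (-0.28 ± 0.04). The test of the E2 effect at 24 h minus that at 3 h was positive for 15 of the 26 and negative for 3 (69.2%, against 34.3% of all genes). In vehicle at 24 h 7 of the 26 were below baseline and 0 above by limma (26.9%, against 11.9% of all genes). Against baseline, E2 at 24 h was higher for 16 and lower for 3 (73.1%, against 41.6% of all genes).

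**Figure D4:**
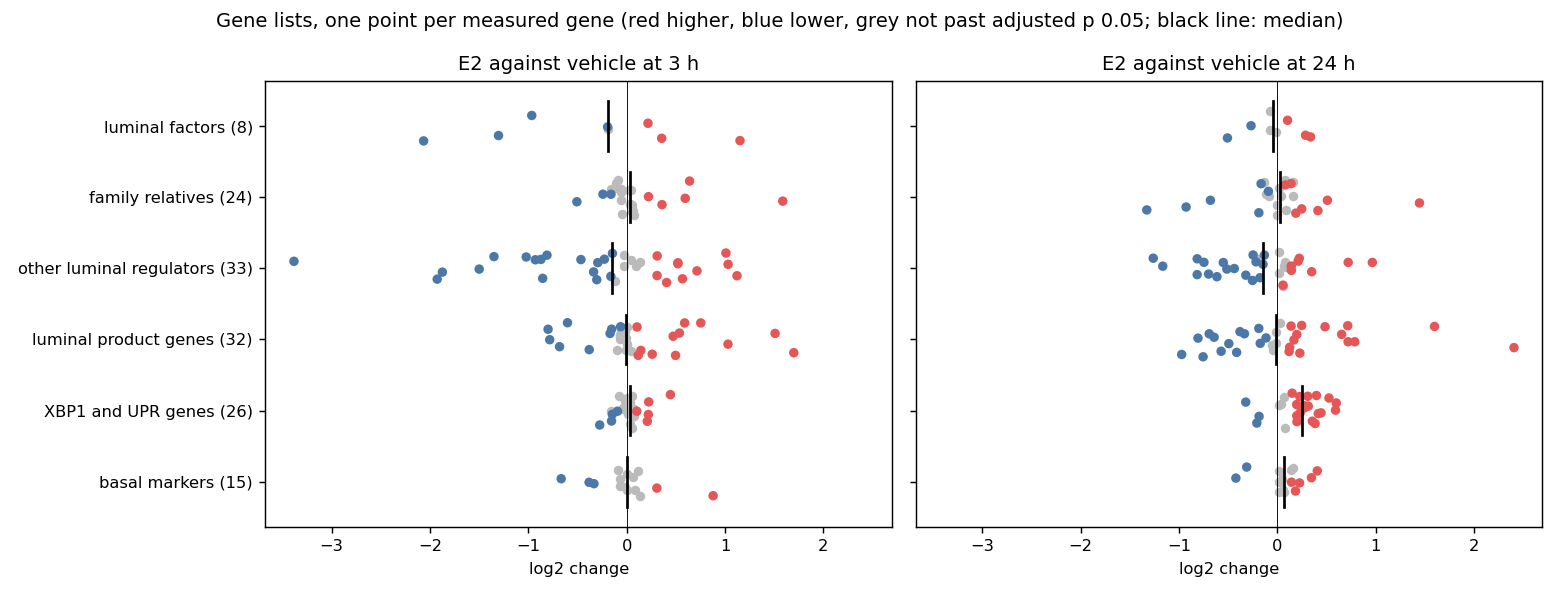
Log2 change of E2 against vehicle (x axis) at 3 h and 24 h for every measured gene of 6 lists (rows, with the number measured), with the median as a black line. The median of the XBP1 and unfolded protein response (UPR) list is 0.03 at 3 h and 0.25 at 24 h, and GATA3 is the lowest of the luminal factors at -2.07.

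The luminal product genes, a list that includes estrogen targets, averaged between 11.4 and 11.6 on every array. ESR1 stood at 13.5 at baseline. Of 15 basal markers, 8 were dim at baseline, among them KRT14 (4.01) and SNAI2 (2.80). Others were well above that level, such as the P-cadherin gene CDH3 at 9.32 and the integrin gene ITGB4 at 7.89 in vehicle at 24 h, and both fell with E2 at 24 h (-0.42 ± 0.05 and -0.31 ± 0.05). The mean of the list lay between 6.05 and 6.25 on every array. Of the 15, 2 rose and 3 fell at 3 h (33.3%, against 31.1% of all genes), and 5 rose and 2 fell at 24 h (46.7%, against 45.7%). CDH3 and ITGB4 were the 2 that fell at 24 h. TAGLN rose by 0.88 ± 0.07 at 3 h and 0.41 ± 0.07 at 24 h (limma adjusted p = 9.4e-09 and 0.00014). Its vehicle mean at 3 h lay under the dim level. Among those that fell at 3 h were CDH3 (-0.38) and OXTR (-0.67), the latter dim with E2. None of 12 stromal markers passed at 3 h by limma, and 4 rose and 2 fell at 24 h (50%, against 45.7% of all genes). SPARC, a matrix glycoprotein gene on the stromal list, was expressed at 10.80 in vehicle at 24 h and fell with E2 (-1.11 ± 0.03, limma adjusted p = 3.5e-17), and COL1A1 stood at 8.42 and rose by 0.15 ± 0.05. Among 11 markers of immune and endothelial cells, 8 were dim in all 5 groups, and at 3 h LYZ was higher and PECAM1 lower, by 0.29 and -0.26. At 24 h LYZ (0.88 ± 0.09) and CD2 (0.22 ± 0.07) were higher and PECAM1 lower (-0.42 ± 0.08), 27.3% of the list against 45.7% of all genes. Any pair of arrays of 1 group correlated at 0.998 or 0.999, and any pair of different groups at 0.988 to 0.998. RNA quality can be read from ACTB probe sets at either end of the transcript. Their log2 gap, 3′ minus 5′, averaged 0.38 ± 0.03 in the E2 arrays at 3 h and 0.31 ± 0.03 in the vehicle arrays (SD, n = 4), without overlap. The same gap for GAPDH differed the other way, at -0.138 ± 0.011 with E2 and -0.116 ± 0.0085 with vehicle (SD, n = 4), also without overlap. The part of RNA quality in the members' changes was not tested. At 24 h the ACTB gap averaged 0.38 ± 0.01 (E2) and 0.40 ± 0.03 (vehicle), with overlap (SD, n = 4). The baseline arrays had the widest ACTB gap, 0.47 ± 0.01 (SD, n = 4), without overlap with any other group. Their GAPDH gap of -0.124 ± 0.014 overlapped both groups at 3 h. This limit applies to every comparison with baseline.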

How the data were processed

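RNA from 20 SUM44 cultures was hybridised to Affymetrix expression arrays. The authors deposited 1 log2 value for each probe set and array. RMA and the affy package are named in the submitters' processing notes, and their versions and parameters are not given in the sources used here. Since RMA brings arrays to a common distribution, changes in the amount of RNA a cell holds are not seen. Each group mean rests on 4 arrays, and for each gene the 5 groups share 1 estimate of the spread. A standard error thus also reflects groups outside the comparison.

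Of 22277 probe sets, 62 controls were left out, 19064 had 1 gene symbol, 1043 several and 2108 none. The Entrez numbers of 19052 matched RefSeq, which changed 0 symbols. The highest-mean probe set stood for each of 11963 genes. All 20 arrays entered 1 limma fit (limma 3.58.1, R 4.3.3) with a mean per group, no block and two-sided tests, adjusted by Benjamini-Hochberg over all genes at 0.05. Other probe sets come from the same fit over all 19064. Errors after ± are standard errors unless SD is named.

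The members, gene lists and comparisons were chosen with earlier results of these data known. Named genes were the members, their paralogs, up to 3 genes per list by smallest p at each time, marker genes used to check the line, and the 3 genes nearest in pattern to each member spanning at least 0.5. The fit was tested on simulated data, with changes placed in the comparison of E2 against vehicle at 3 h (11963 genes). It found 76% of 50 genes changed 1.25-fold and 100% of 50 changed 2-fold. In that simulation 197 genes were called, against 3720 in the real comparison, so these rates hold for a setting with far fewer called genes. Replicate letters A to D recur in every group. Deviations of same-letter arrays correlated from -0.25 to 0.37, and over 0.1 in 6 of 40 pairs, so the letters were not used as pairs. The alternatives tried were a fit of only the groups compared, a replicate block, other scalings, leaving out dim genes, other probe sets, another variance prior, weights for arrays, a stricter threshold, single arrays left out and exact permutation. P-values measure the spread between these cultures of 1 line.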

Additional observations from a re-analysis of the deposited data

Results flagged for a closer look

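The E2 effect differed between the times, by the interaction test in limma, for GATA3 (1.56, 24 h minus 3 h), FOXA1 (1.04), TFAP2A (0.89), ELF3 (-1.17) and ELF5 (0.53, dim). Among 40 sets of 4 arrays, 1 array stood apart from its group: XBP1 on baseline array A read 12.62 where the other 3 read 12.67. Chance alone marks about 1 in 20 such sets.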

How the results depend on the processing

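With the replicate letter as a replicate block, the counts of members past the threshold were 7 for E2 against vehicle at 3 h, 5 at 24 h and 5 for the difference, as without it, and 5 in place of 6 for vehicle at 3 h against baseline, where SPDEF was lost. The block changed no other call of a member, and 7 of 20 arrays correlated best with an array of their own letter. The changes of GATA3, FOXA1 and XBP1 with E2, and of TFAP2A and ELF3 at 3 h, kept direction and call under every alternative run. At 3 h the GATA3 change ranged from -2.65 to -2.05, and leaving out single arrays gave -2.10 to -2.02. The count for vehicle at 24 h against baseline, 1 here, was 2 without the dimmest 25% of genes, 2 with the mean of all probe sets, 2 with array weights and 3 with a trended, robust variance prior, and 1 to 2 without single arrays (2 without vehicle 24 h array D). The cause was not tested. Signs turned only for changes that had not passed, or on another probe set. ELF3 at 24 h was 0.000437 with arrays centred on their medians, 0.030 after renewed quantile normalization, 0.097 with the mean of its probe sets and 0.21 on 201510_at. TFAP2C gave 0.025 and, on 205287_s_at, 0.16 for the difference between times, and -0.012 for vehicle at 24 h against baseline, the first and last with the mean of its probe sets. TFAP2A on 210669_at was 0.0092 at 24 h. The TFAP2A result at 24 h, not past the threshold in the main fit, kept direction and call in 10 of 13 alternatives. By exact permutation of its lead probe set the unadjusted p was 0.029. SPDEF was 0.027 and 0.034 on 213442_x_at and 0.043 and 0.12 on 214403_x_at at 3 h and 24 h. ELF5 on 220624_s_at was 0.011 at 3 h. For vehicle at 24 h against 3 h, GATA3 was -0.0036 with the mean of its probe sets and ELF5 -0.0046 with array weights. Without single arrays these ran from -0.0041 to 0.019 and from -0.051 to 0.068, and FOXA1 in vehicle at 24 h against baseline from -0.031 to 0.0048. The smallest p of the exact permutation test of 4 against 4 arrays is 0.029. Changes of ELF5 lie near background, where array signals compress differences.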

Other observations

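Several luminal regulators and products, chosen here after their values were seen, differed between the times. TBX3, a T-box repressor of mammary development, rose by 0.52 ± 0.06 at 3 h and fell at 24 h (-0.61 ± 0.06), a difference of -1.13 ± 0.09 (limma adjusted p = 2.9e-09). STC2 rose at 3 h and fell at 24 h (-0.64 ± 0.03), a difference of -1.67 ± 0.05 (limma adjusted p = 3.9e-15). AGR2, which rose by 1.6 ± 0.03 at 24 h, was slightly lower at 3 h (-0.15 ± 0.03, limma adjusted p = 0.0012). The keratin gene KRT8 rose by 0.10 ± 0.03 at 3 h and 0.49 ± 0.03 at 24 h. GRHL2, an epithelial grainyhead factor, rose by 0.52 ± 0.03 at 3 h and 0.22 ± 0.03 at 24 h, and MYB rose by 0.57 ± 0.03 and 0.35 ± 0.03.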
